A study of Mus musculus with 12 samples.

Results

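The genes described here are 10 imprinted genes with known roles in growth: H19, Igf2, Igf2r, Dlk1, Meg3, Peg3, Plagl1, Grb10, Ndn and Mest. They were chosen by name, as a fixed list of gene symbols, from the 37620 genes with a row in the deposited count files of a study of mouse neural stem cells. All 10 have a single row there, and all 10 passed the low-count filter in every comparison. Earlier results of these data were known when the list was chosen.

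An imprinted gene is expressed mainly from the copy inherited from 1 parent, because the parental copies carry different DNA methylation marks. Igf2, Dlk1, Mest, Peg3, Plagl1 and Ndn are read mainly from the paternal copy, whereas H19, Meg3 and, in most mouse tissues, Igf2r are read from the maternal copy; Grb10 is maternal in most tissues and paternal in neurons. Many paternally expressed members promote growth of the embryo and several maternally expressed ones restrain it. Counts per gene do not separate the parental copies, so imprinting itself was not measured.

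The cells were neural stem cells of C57BL/6J mice, taken from E14.5 embryos and grown as dividing cultures with rhFGF-2 and rhEGF, and their mRNA was sequenced with strand information. The E proteins E12 and E47, bHLH transcription factors, arise from the gene Tcf3 by alternative splicing. They bind DNA sites of the form CANNTG, called E-boxes, where N is any base in the pattern. The pattern alone does not say which of these sites they bind. The groups were E12-/- cells (E12KO), E12+/+ cells from their litter mates (E12wt), E47-/- cells (E47KO) and E47+/+ cells from their litter mates (E47wt), with 3 libraries each. Whether replicates were separate embryos or separate cultures is not stated in the labels, so a p-value here reflects no more than library-to-library spread, part of which may be technical.

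Libraries held 34515297 to 56835783 reads on genes, so that 3 reads corresponded to 0.0528 to 0.0869 CPM (counts per 1e6 gene reads). All 10 neural stem cell markers examined, such as Nes, Sox2 and Fabp7, had a mean of at least 1 CPM, and their summed level was 7584 to 8951 CPM in every library. Summed markers of microglia stayed at or below 0.444 CPM and those of erythroid cells at or below 1.36 CPM. Marker lists of other neural types summed to 874 to 1427 CPM for the oligodendrocyte lineage and 668 to 1376 CPM for astrocytes. The neuron list summed to 1047 to 1314 CPM. A few genes gave most of each sum. Map2 gave 971 to 1253 CPM, while the neuron genes Stmn2 and Neurod6 stayed at or below 0.393 and 0.185 CPM. Among astrocyte genes Sparcl1 gave 398 to 864 CPM, while Gfap stayed at or below 0.955 CPM. Olig1 gave 508 to 813 CPM, while Mbp stayed at or below 2.88 CPM. These sums therefore do not measure the share of each cell type. Of these lists edgeR called 0 genes in either knockout, but all 7 oligodendrocyte lineage genes had a log2 fold change below 0 in E12KO, with a median of -0.60, against 4 above and 3 below 0 in E47KO. Summed over these 7 genes, E12wt replicates 1, 2 and 3 had 1023, 967 and 1427 CPM, the highest in replicate 3. E12KO replicates 1, 2 and 3 had 1047, 874 and 1106 CPM. The part of these cell types in the values of the imprinted genes was not tested. E47KO replicate 2 stood apart from its group, with correlations of 0.965 and 0.977 with the other E47KO libraries across 15277 genes, and E12wt replicate 3 to a smaller extent, at 0.985 and 0.986. Sex-linked transcripts differed within the E47 line: the 3 E47KO libraries and E47wt replicate 2 had low Xist, whereas E47wt replicates 1 and 3 and all 6 libraries of the E12 line had high Xist. Ddx3y, a gene of the Y chromosome, was at 61.7 to 70.3 CPM in the low-Xist libraries and at most 0.109 CPM in the others. Knockout and sex therefore cannot be fully told apart in the E47 line. In bulk RNA, fewer cells of a type and less RNA per cell cannot be told apart.

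The 10 genes spanned a wide range of expression, in an order that was nearly the same in all 12 libraries. Levels per length, in CPM per kb of annotated exon, were compared between genes. Mest averaged 206, Ndn 27.2, Grb10 19.8, Peg3 17.4, Igf2r 6.86 and Plagl1 1.22 CPM per kb. Of the remaining genes, H19 averaged 0.448, Dlk1 0.241, Igf2 0.077 and Meg3 0.029 CPM per kb. Mest and Ndn ranked 1 and 2, and Igf2r and Plagl1 ranked 5 and 6, in all 12 libraries. Grb10 and Peg3 exchanged ranks 3 and 4 between libraries. Dlk1 ranked above H19 in E12KO replicate 3 and E47KO replicate 3, Igf2 above Dlk1 in E12wt replicate 1, and Meg3 above Igf2 in replicate 3 of E12wt, E47KO and E47wt, so these neighbours overlapped in their spread. H19 ranked above Igf2 and Meg3 in all 12 libraries, and the lowest H19 and Dlk1 levels, at 0.168 and 0.113 CPM per kb, exceeded the highest Meg3 level, at 0.0908 CPM per kb. H19 and Igf2, a pair that shares enhancers on chromosome 7, and Dlk1 and Meg3, a pair from a single imprinted region of chromosome 12, were therefore the 4 weakest members. Igf2 rested on 4 to 54 reads per library, Meg3 on 1 to 71, H19 on 23 to 91 and Dlk1 on 23 to 92, while Igf2r had at least 2015 reads.

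**Figure D1:**
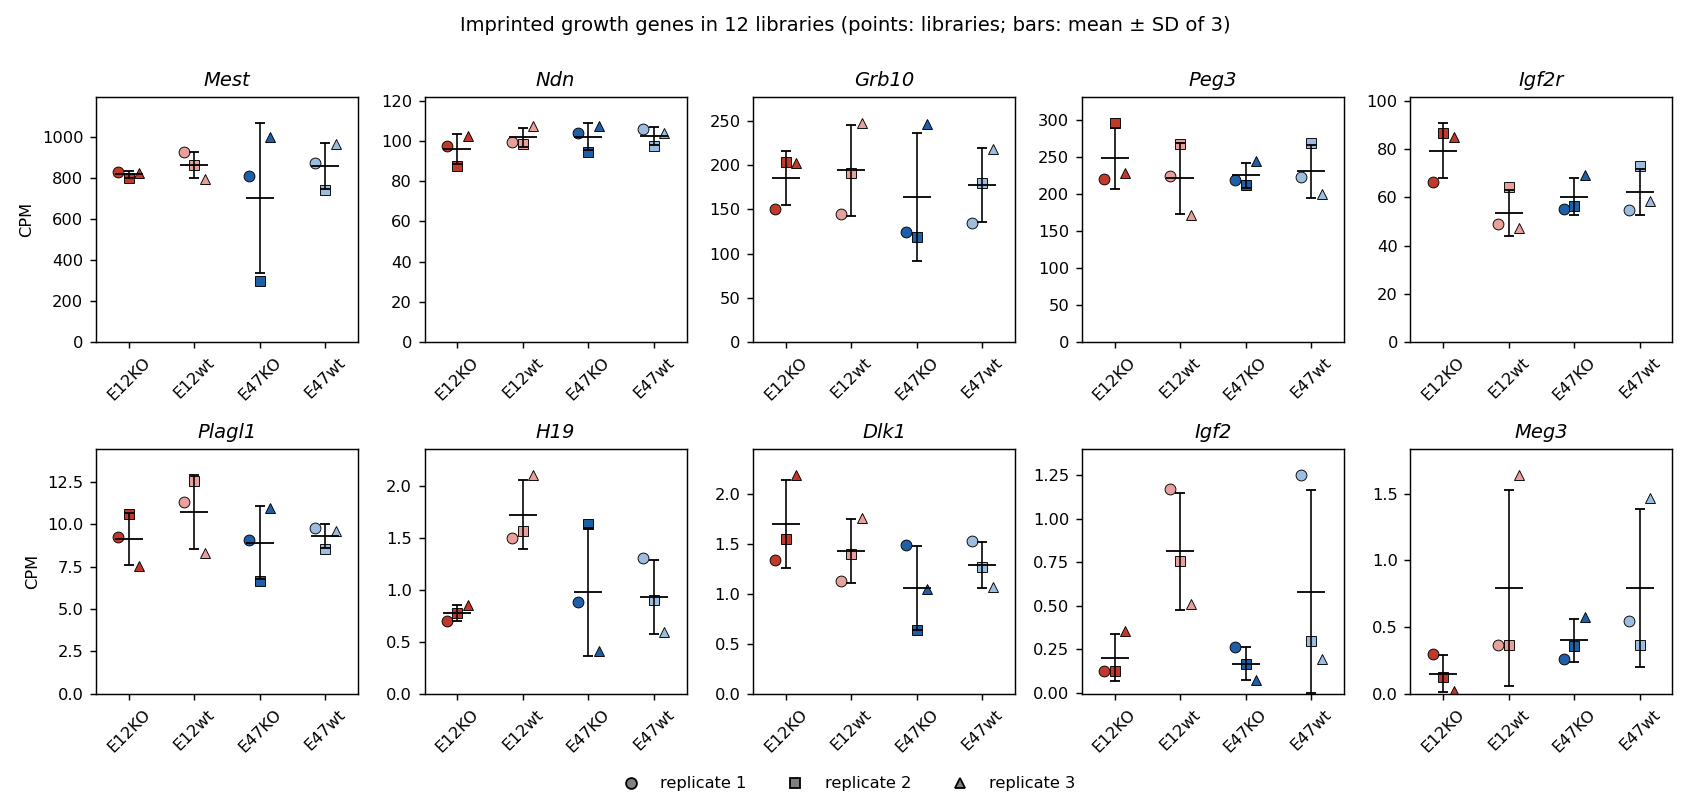
CPM (y axis, starting near 0) of each gene in the 12 libraries, with the E12KO, E12wt, E47KO and E47wt groups along the x axis. Points are libraries, shaped by replicate number, and bars are the mean ± SD of 3 libraries. Igf2r lies higher and H19, Igf2 and Meg3 lie lower in E12KO than in E12wt without overlap, and Mest has 1 low library, E47KO replicate 2.

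No member passed the test in either knockout. With the quasi-likelihood test of edgeR and Benjamini-Hochberg (BH) adjustment, 0 of the 10 genes were called at an adjusted p under 0.05 in E12KO against E12wt, where 0.0407% of the 14755 genes tested were called, and 0 of 10 in E47KO against E47wt, where 0.0134% of 14965 genes were called. At an unadjusted p under 0.05 these counts were 4 of 10 in the E12 line, against 8.96% of all genes, and 0 of 10 in the E47 line, against 2.19% of all genes. Because the members were chosen with earlier results of these data known, such shares, here and below, do not test the members as a set. DESeq2 called 1 of 10 in the E12 line, Igf2r, against 0.515% of all genes, and 0 of 10 in the E47 line, against 0.0802% of all genes. In the E47 line DESeq2 gave no adjusted p for 1456 of the 14965 genes. Igf2 was among them, with an unadjusted DESeq2 p of 0.0431, and could not be called there. In the E12 line 3 members had a log2 fold change above 0 and 7 below, with a median of -0.08, and the median of all genes was 0.00. In the E47 line 1 lay above 0 and 9 below, with a median of -0.11, and the median of all genes was -0.01.

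The 4 genes of the E12 line with an unadjusted p under 0.05 were also the 4 whose libraries did not overlap between groups. Such separation was seen in 13.7% of all genes tested there, with 6.77% higher and 6.95% lower in E12KO. They were Igf2r on the higher side and H19, Igf2 and Meg3 on the lower side. In the E47 line 0 of 10 members separated, against 7.81% of all genes.

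**Figure D2:**
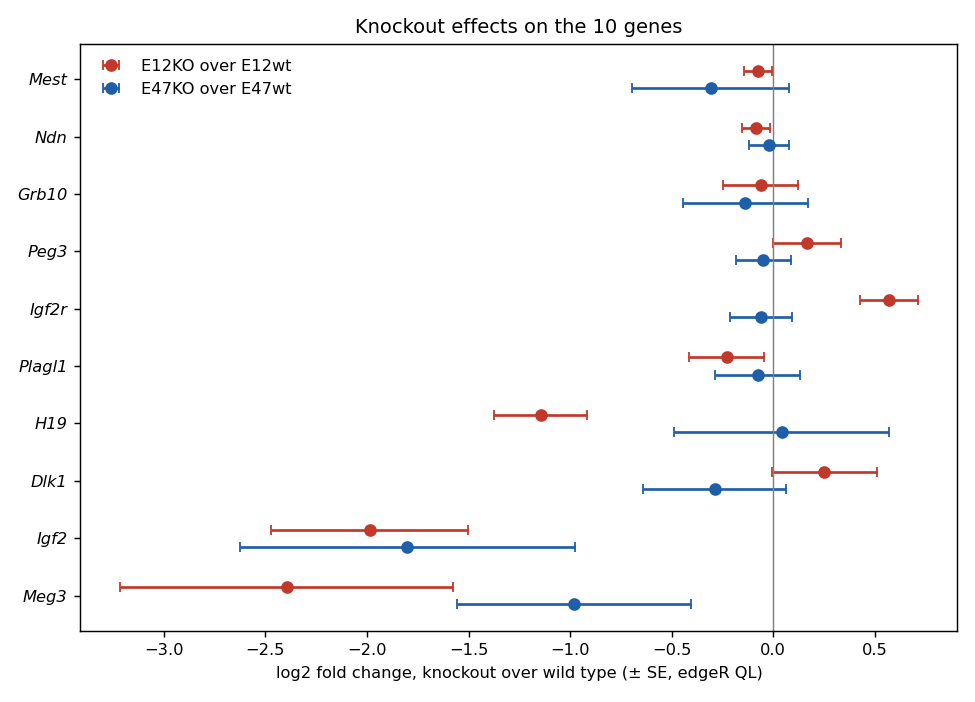
Log2 fold change of each gene (x axis, knockout over wild type, points with SE from edgeR), ordered down the page by level per kb, for E12KO over E12wt in red and E47KO over E47wt in blue. Igf2r lies at 0.57 in E12KO and -0.06 in E47KO, and H19 at -1.14 and 0.04; Igf2 lies below 0 in both, with wide errors.

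Igf2 (ENSMUSG00000048583) encodes insulin-like growth factor 2, a secreted growth factor of the embryo. It was at 0.124, 0.125 and 0.356 CPM in the 3 E12KO libraries, against 1.17, 0.757 and 0.509 CPM in E12wt. In the other line it was at 0.264, 0.166 and 0.072 CPM in E47KO, against 1.25, 0.300 and 0.192 CPM in E47wt. Thus every E12KO library lay below every E12wt library, while the E47 groups overlapped and E47wt replicate 1 alone was high. Each E47KO library lay below the E47wt library of the same replicate number, and with the replicate number as a block the E47 log2 fold change was -1.63, with an edgeR BH-adjusted p of 0.866. Summed over libraries, Igf2 had 25 reads in E12KO and 107 in E12wt, a depth-scaled ratio of 0.245 with an exact 95% interval of 0.152 to 0.382, and 21 reads in E47KO and 69 in E47wt, a ratio of 0.299 with an interval of 0.174 to 0.493. These intervals cover counting error only. The log2 fold change was -1.99 ± 0.49 (SE) in E12KO, with an edgeR BH-adjusted p of 0.507, and -1.80 ± 0.82 in E47KO, with an adjusted p of 0.971. Without E47wt replicate 1 the E47 value was -0.60, and over the 12 alternatives of the E12 comparison it ranged from -2.68 to -1.63 with adjusted p from 0.131 to 1.00.

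H19 (ENSMUSG00000000031) is a long noncoding RNA that is transcribed next to Igf2 and restrains growth. H19 stood at 0.695, 0.775 and 0.856 CPM in E12KO, against 1.50, 1.56 and 2.10 CPM in E12wt. E47KO libraries had 0.887, 1.64 and 0.414 CPM of H19, against 1.31, 0.899 and 0.597 CPM in E47wt. The E12 groups were separate, at 95 reads in E12KO and 224 in E12wt, whereas the E47 groups covered the same range. The log2 fold change in E12KO was -1.14 ± 0.23, with an edgeR BH-adjusted p of 0.356, a DESeq2 adjusted p of 0.0614 and a range over the 12 alternatives of -1.25 to -0.98. The authors' deposited table gives -1.15 ± 0.34 with an adjusted p of 0.0847 for the same comparison. In E47KO the value was 0.04 ± 0.53, and it was -0.55 without E47KO replicate 2, so the sign there depended on that library.

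Exons of H19 also hold the precursor of miR-675, the best known product of this transcript, and its mature arms from RefSeq (GRCm38.p6) are shown here, with the seed at bases 2 to 8 in capitals. They lie within H19 at chr7:142577112-142577133 and chr7:142577078-142577099, both on the minus strand. These libraries of poly(A) RNA measure the host transcript, and the level of the miRNA itself was not measured.
miR-675-5p: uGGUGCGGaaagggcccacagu
miR-675-3p: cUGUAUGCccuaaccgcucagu

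Transcripts of 4 fibroblast matrix genes were high in the same libraries as Igf2, though not all markers of the list followed them. Among the markers of mesenchyme and meninges, Col1a1, Col1a2 and Bgn were called lower in E12KO by edgeR, 3 of the 8 tested of 12 listed, of which 3 had a log2 fold change above 0 and 5 below. Col1a2, a chain of type I collagen, was at 0.02, 0.08 and 0.05 CPM in E12KO, against 1.67, 2.79 and 1.62 CPM in E12wt. E47KO had 0, 0.08 and 0.16 CPM of Col1a2, against 3.92, 0.04 and 0.09 CPM in E47wt. The sum of Col1a1, Col1a2, Col3a1 and Bgn, a subset chosen after its values were seen, was 7.79 to 14.7 CPM in 4 libraries, the E12wt libraries and E47wt replicate 1, and 1.22 to 2.66 CPM in the other 8. Those 4 libraries were also the 4 with the highest Igf2, at 0.509 to 1.25 CPM, against 0.072 to 0.356 CPM in the other 8. The whole list of 12 markers, whose sum is mostly Zic1, Prrx1 and Foxc1, gave 34.3 to 50.5 CPM in E12KO, 44.4 to 53.8 CPM in E12wt, 46.6 to 60.0 CPM in E47KO and 38.5 to 55.8 CPM in E47wt. Foxc1, a transcription factor of the meninges named after its values were seen, went the other way in the E12 line, at 8.06, 8.60 and 8.15 CPM in E12KO, against 7.28, 6.55 and 4.39 CPM in E12wt. Lum and Fmod, matrix proteoglycan genes also named after their values were seen, were at or below 0.109 and 0.082 CPM in every library. H19 tracked the matrix genes less closely, since its second highest library was E47KO replicate 2, at 1.64 CPM of H19 beside 2.66 CPM of matrix genes. The part of matrix-producing cells in the Igf2 and H19 values was not tested.

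**Figure D3:**
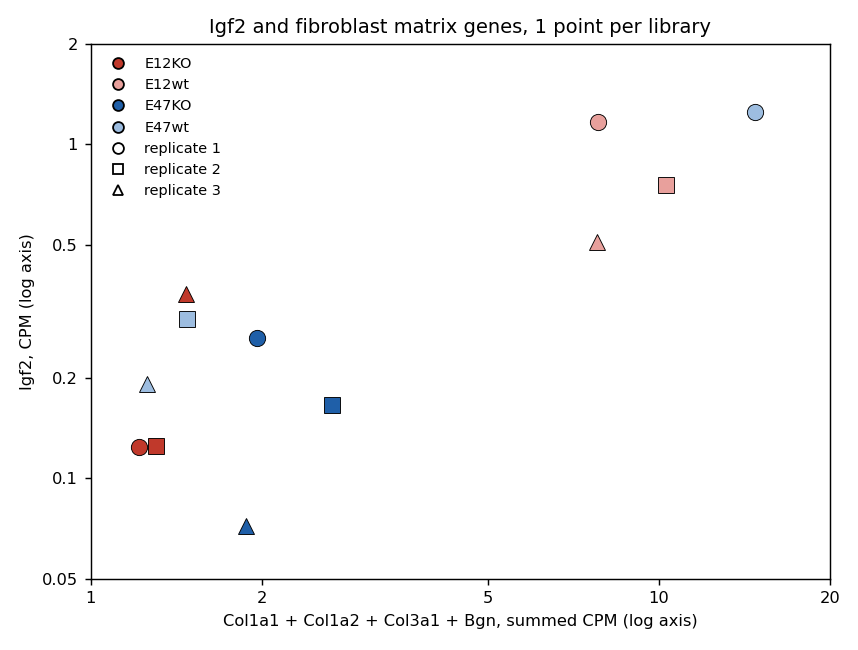
Igf2 in CPM (y axis, log scale) against the summed CPM of Col1a1, Col1a2, Col3a1 and Bgn (x axis, log scale), 1 point per library, coloured by group and shaped by replicate number. The E12wt libraries and E47wt replicate 1 lie apart at the upper right, with at least 7.79 CPM of matrix genes and 0.509 CPM of Igf2.

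Across the 12 libraries, log2 CPM of H19 and Igf2 correlated at Pearson's r = 0.70 (permutation p = 0.012, adjusted by BH over 3 gene pairs to 0.037) and Spearman's rho = 0.66 (permutation p = 0.025, adjusted 0.074). Without the libraries farthest from the H19 median, E12wt replicate 3 and E47KO replicate 3, r was 0.64 (permutation p = 0.054, adjusted 0.161). Within the E12 line r was 0.80 and within the E47 line 0.57, each over 6 libraries, with adjusted permutation p of 0.225 and 0.588. With the group means removed, r was 0.53 (adjusted permutation p = 0.219), so the relation did not pass the test within lines or groups.

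Other genes near H19 and Igf2 on chromosome 7 were mostly unexpressed: 5 of the 12 listed neighbours were tested, 0 were called by edgeR in either line, and 4 had a log2 fold change above 0 and 1 below 0 in each line. Ctsd, which encodes the lysosomal protease cathepsin D, averaged 409 ± 13.9 CPM in E12KO and 349 ± 57.0 CPM in E12wt (SD, 3 libraries each). Cd81, a tetraspanin gene, averaged 369 ± 33.0 CPM in E12KO and 328 ± 16.9 CPM in E12wt. Their log2 fold changes were 0.23 ± 0.11 and 0.17 ± 0.08 in E12KO, the opposite sign to H19 and Igf2. Lsp1, named after its values were seen, was the neighbour below 0 in E12KO, at 0.174, 0.350 and 0.309 CPM, against 0.564, 0.586 and 0.393 CPM in E12wt. These groups did not overlap, and its log2 fold change was -0.88 ± 0.35, with an unadjusted p of 0.0343 and an edgeR BH-adjusted p of 0.534. In E47KO, Lsp1 was at 0.62 ± 0.58.

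Igf2r (ENSMUSG00000023830) encodes the cation-independent mannose-6-phosphate receptor, which carries IGF2 to lysosomes for degradation and so limits its supply. Igf2r was at 66.2, 86.6 and 85.0 CPM in E12KO, against 49.0, 64.4 and 47.2 CPM in E12wt. It was at 55.3, 56.4 and 69.3 CPM in E47KO, against 54.8, 73.0 and 58.6 CPM in E47wt. All E12KO libraries were above all E12wt libraries, with 9707 reads in E12KO and 6936 in E12wt, while the E47 groups overlapped. The E12KO mean was 79.3 ± 11.4 CPM and the E12wt mean 53.5 ± 9.48 CPM (SD, 3 libraries each), a log2 fold change of 0.57 ± 0.14. It missed the threshold in edgeR, with a BH-adjusted p of 0.507, and passed it in DESeq2, with 0.56 and an adjusted p of 0.0277. The authors' deposited table, in which 0.513% of genes pass at an adjusted p under 0.05, lists 0.57 ± 0.15 with an adjusted p of 0.0282. Leaving out single libraries gave 0.48 to 0.72, and DESeq2 was the only one of 12 alternatives that called the gene. In E47KO the value was -0.06 ± 0.15, and the difference between the knockout effects, E47 minus E12, was -0.62 ± 0.22 with an unadjusted p of 0.017 and an edgeR BH-adjusted p of 0.932.

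The promoter of Igf2r is printed here because this gene alone of the 10 passed an adjusted test of a knockout effect, in DESeq2, and because E12 and E47 bind E-boxes. The window spans chr17:12769657-12769956 on the minus strand in RefSeq's GRCm38.p6, a build later than the mm9 of the submitters' alignment, with CANNTG, which reads the same on both strands, in capitals.
Igf2r promoter: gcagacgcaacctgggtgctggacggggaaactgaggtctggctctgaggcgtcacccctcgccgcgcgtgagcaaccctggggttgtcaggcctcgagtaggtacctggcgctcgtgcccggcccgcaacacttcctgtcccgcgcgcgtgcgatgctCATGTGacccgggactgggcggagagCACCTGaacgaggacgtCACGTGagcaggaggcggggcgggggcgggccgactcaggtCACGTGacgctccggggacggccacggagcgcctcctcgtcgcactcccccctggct
This window holds 4 matches to CANNTG, of which 1 is CACCTG and 0 are CAGCTG. The other matches read CATGTG or CACGTG. At least 1 match occurs in 72.3% of 32851 promoter windows of the same length and at least 4 occur in 6.49% of them. CACCTG, or CAGGTG as it reads on the other strand, occurs in 20.2% of them. The window has 34 CpG dinucleotides, and 92.3% of promoter windows have fewer. Over the 16 windows available for 9 members, 9 hold CANNTG and 2 hold CAGGTG or CACCTG. Their median CpG count is 13, against 7 over all windows. Mest windows 2 and 3 overlap, so the 16 are not all separate. Binding was not measured, so these matches describe the sequence only.

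Genes of the insulin-like growth factor pathway were examined beside the ligand and its receptor. Of 14 listed genes, 13 were tested and 0 were called by edgeR in either line. In E12KO 10 lay above 0 and 3 below, with a median log2 fold change of 0.18, while in E47KO 5 lay above and 8 below, with a median of -0.10. Igfbp2, which encodes a secreted IGF-binding protein, averaged 336 ± 51.2 CPM in E12KO and 238 ± 52.0 CPM in E12wt, and its log2 fold change was 0.50 ± 0.16. Igfbp3, a binding protein that carries IGFs, averaged 444 ± 62.4 CPM in E12KO and 359 ± 44.9 CPM in E12wt, at 0.31 ± 0.12. Outside the naming rule, and chosen after their values were seen, DESeq2 called Igfbp4 higher in E12KO at an adjusted p of 0.0251 and Igf2bp2 lower at 0.0356. Igfbp4, another IGF-binding protein, was at 91.5, 123 and 168 CPM in E12KO, against 72.2, 89.2 and 66.0 CPM in E12wt. Igf2bp2, which encodes an RNA-binding protein that binds Igf2 mRNA, was at 38.6, 38.3 and 39.1 CPM in E12KO, against 43.7, 56.4 and 59.8 CPM in E12wt. Their edgeR log2 fold changes were 0.75 ± 0.20 and -0.46 ± 0.11, each with a BH-adjusted p of 0.507.

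The correlation of Igf2r with Igf2 over the 12 libraries was r = -0.49 (permutation p = 0.101, adjusted 0.151) and rho = -0.54 (adjusted permutation p = 0.111). Within the lines r was -0.65 in E12 and -0.43 in E47, and without the libraries farthest from the Igf2r median, E12KO replicates 2 and 3, it was -0.54 (adjusted permutation p = 0.168). None of these passed the threshold.

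Dlk1 (ENSMUSG00000040856) and Meg3 (ENSMUSG00000021268) are the paternally and maternally expressed genes of a region on chromosome 12. Dlk1 encodes a transmembrane protein of the Delta family that is linked to the self-renewal of postnatal neural stem cells, and Meg3 is a long noncoding RNA. Dlk1 was at 1.34, 1.55 and 2.19 CPM in E12KO, against 1.13, 1.39 and 1.76 CPM in E12wt. E47KO had 1.49, 0.638 and 1.05 CPM of Dlk1, against 1.52, 1.26 and 1.07 CPM in E47wt. The groups overlapped in both lines, and the log2 fold changes were 0.25 ± 0.26 in E12KO and -0.29 ± 0.35 in E47KO.

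Meg3 was at 0.298, 0.125 and 0.024 CPM in E12KO, against 0.369, 0.366 and 1.64 CPM in E12wt. It was at 0.264, 0.360 and 0.577 CPM in E47KO, against 0.544, 0.364 and 1.47 CPM in E47wt. In both wild types replicate 3 was above the other libraries of its group, and the lowest level, in E12KO replicate 3, was 1 read. The 3 libraries with the highest Meg3, replicate 3 of E12wt, E47KO and E47wt, were also the 3 with the highest summed oligodendrocyte lineage markers, at 1427 CPM in E12wt, 1264 CPM in E47KO and 1411 CPM in E47wt, and the part of those cells in the Meg3 values was not tested. Each E47KO library lay below the E47wt library of the same replicate number, as for Igf2. In replicate 2 the levels were nearly equal, at 0.360 and 0.364 CPM (13 and 17 reads). With the replicate number as a block the E47 log2 fold change was -0.89, with an edgeR BH-adjusted p of 0.866. The sums were 18 reads in E12KO and 103 in E12wt, a depth-scaled ratio of 0.183 with an exact 95% counting interval of 0.105 to 0.305, and 56 reads in E47KO and 106 in E47wt, a ratio of 0.519 with an interval of 0.368 to 0.724. The fitted log2 fold change was -2.40 ± 0.82 in E12KO, with an edgeR BH-adjusted p of 0.523, and -0.98 ± 0.58 in E47KO, with an adjusted p of 0.971. Without E12wt replicate 3 the E12 value was -1.31, and without E47wt replicate 3 the E47 value was -0.16; with the Xist class of the library as a covariate the E47 value was 0.14, so its sign there was not stable. Meg3 and Dlk1 correlated at r = -0.34 over the 12 libraries (permutation p = 0.271, adjusted 0.271) and rho = -0.31 (adjusted permutation p = 0.320), at -0.35 within the E12 line and -0.08 within the E47 line.

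Among the members on the growth-restraining side, Grb10 (ENSMUSG00000020176) encodes an adaptor that binds and dampens insulin and IGF receptors. Grb10 was at 151, 203 and 203 CPM in E12KO, against 145, 191 and 247 CPM in E12wt. It was at 125, 119 and 247 CPM in E47KO, against 135, 180 and 219 CPM in E47wt. The groups overlapped in both lines, and the log2 fold changes were -0.06 ± 0.19 in E12KO and -0.14 ± 0.31 in E47KO. Plagl1 (ENSMUSG00000019817), a zinc finger factor known as Zac1 that restrains cell cycling and regulates other imprinted genes, ranged from 7.56 to 10.6 CPM in E12KO, 8.33 to 12.6 CPM in E12wt, 6.68 to 11.0 CPM in E47KO and 8.52 to 9.80 CPM in E47wt. Its log2 fold changes were -0.23 ± 0.18 in E12KO and -0.08 ± 0.21 in E47KO.

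Peg3 (ENSMUSG00000002265), a zinc finger protein of the paternal copy with roles in growth and maternal behaviour, averaged 248 ± 41.3 CPM in E12KO and 221 ± 48.2 CPM in E12wt (SD, 3 libraries each). In the other line Peg3 averaged 225 ± 17.1 CPM in E47KO and 230 ± 35.4 CPM in E47wt, and the log2 fold changes were 0.17 ± 0.17 in E12KO and -0.05 ± 0.13 in E47KO. Ndn (ENSMUSG00000033585) encodes necdin, a MAGE family protein that holds back the cell cycle in neural precursors and neurons. It was the steadiest member, at 87.7 to 102 CPM in E12KO, 98.4 to 107 CPM in E12wt, 94.7 to 108 CPM in E47KO and 97.5 to 106 CPM in E47wt. Its within-group SD was 0.09 on the log2 scale, and 8.29% of genes had a smaller one, whereas the SD was 0.99 for Meg3, 0.86 for Igf2 and 0.56 for H19, against a median of 0.22 over all genes. The Ndn log2 fold changes were -0.08 ± 0.07 in E12KO and -0.02 ± 0.10 in E47KO.

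Mest (ENSMUSG00000051855), which encodes an enzyme-like protein of the alpha/beta hydrolase family and is abundant in embryonic tissue, was the highest member. It was at 830, 801 and 824 CPM in E12KO, against 926, 866 and 798 CPM in E12wt, and the groups overlapped. In the other line it was at 812, 298 and 1001 CPM in E47KO, against 875, 742 and 966 CPM in E47wt. All libraries but 1 lay between 742 and 1001 CPM, and E47KO replicate 2 was the exception. The log2 fold change was -0.08 ± 0.07 in E12KO and -0.31 ± 0.39 in E47KO, and without E47KO replicate 2 the E47 value was 0.06.

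Counting by strand changed the read total of Mest, in percent, more than that of any other member. In GENCODE M21 (GRCm38), 912 bases of its exons, 23.1% of them, overlap exons of Copg2, which is read from the opposite strand. Counts that ignore strand, which the authors' deposited tables rest on, held only 60.6 to 66.0% of the strand-specific Mest reads, and 95.5% or more for every other member but Meg3, which had 75.0% or more. The authors' deposited table lists Mest at -0.05 ± 0.06 in E12KO and -0.30 ± 0.38 in E47KO, against the strand-specific values of -0.08 and -0.31 given above. The E12 fold change moved more for Meg3, which was at -2.56 in E12KO with both-strand counts, against -2.40 with strand-specific counts.

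E47KO replicate 2 also departed from its group at other members, in both directions. Mest lay 1.60 log2 units below the mean of E47KO replicates 1 and 3, and 1.28% of genes lay lower. Dlk1 lay 0.92 below and H19 1.36 above that mean, with 6.95% of genes lower than Dlk1 and 3.63% higher than H19. The 7 other members lay between -0.58 and 0.15. The library was the lowest of all 12 for Mest, Grb10, Plagl1 and Dlk1.

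**Figure D4:**
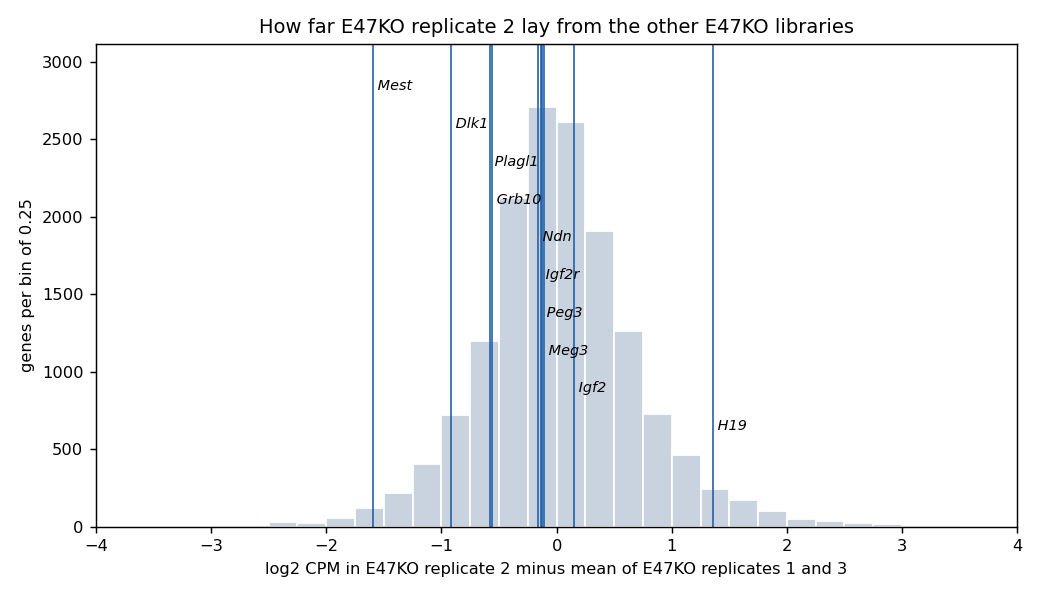
Number of genes (y axis) by the log2 CPM of E47KO replicate 2 minus the mean of E47KO replicates 1 and 3 (x axis, bins of 0.25), with vertical lines at the 10 members. Mest at -1.60 and H19 at 1.36 lie in the tails, and Igf2r, Meg3, Peg3, Ndn and Igf2 lie near the centre.

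For the 3 members with the largest spread among those averaging at least 1 CPM, the genes most alike over the 12 libraries were found among 12580 genes with a mean of at least 1 CPM. Mest was closest to Tfdp1 (r = 0.99), Lsm8 (r = 0.99) and Set (r = 0.99), and without E47KO replicate 2 these values were 0.90, 0.93 and 0.79. Grb10 was closest to Smurf2 (r = 0.97), Cdk12 (r = 0.97) and Ncoa7 (r = 0.96), and the values without that library were 0.97, 0.96 and 0.95. H19 was closest to Zfp825 (r = 0.93), Pcdh8 (r = 0.93) and F3 (r = 0.92), with 0.92, 0.92 and 0.92 without it. Of the 12580 genes searched, 837 had r over 0.90 with Mest, 43 with Grb10 and 5 with H19. These counts are over all 12 libraries, with E47KO replicate 2 included, and the Mest count in particular rests on that low library. The named genes are the best matches of a search and describe these libraries only.

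The difference between the knockout effects, E47 minus E12, was tested in all 12 libraries. DESeq2 called 1 gene (0.00655%), which is a sex-linked marker and no member. EdgeR called 0 of 15277 genes and 0 of the 10 members. At an unadjusted p under 0.05 in edgeR there were 463 genes (3.03%), among them 1 member, Igf2r. H19 followed at 1.19 ± 0.61, with an unadjusted p of 0.074 and an edgeR BH-adjusted p of 0.932, and the value was 0.61 without E47KO replicate 2. The members' effects of the 2 lines were therefore not shown to differ.

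The wild types of the lines, which carry no deletion, were compared with each other. This comparison shares its libraries with the knockout comparisons, so its values stand beside theirs and are not independent of them. EdgeR called 0 of 14892 genes in E47wt against E12wt and 0 of the 10 members; 568 genes (3.81%) had an unadjusted p under 0.05 and DESeq2 called 7 (0.047%), with no member among them. H19 was the only member whose libraries did not overlap, a separation seen in 9.43% of genes. It averaged 0.934 ± 0.356 CPM in E47wt and 1.72 ± 0.334 CPM in E12wt (SD, 3 libraries each), a log2 fold change of -0.89 ± 0.32 with an unadjusted p of 0.0228 and an edgeR BH-adjusted p of 1.00. Wild-type H19 of the E47 line, at 0.597 to 1.31 CPM, thus reached into the range of the E12KO libraries, at 0.695 to 0.856 CPM. Igf2r averaged 62.2 ± 9.61 CPM in E47wt and 53.5 ± 9.48 CPM in E12wt, and these groups overlapped.

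The remaining imprinted genes of a longer list were set beside the members. Of 51 listed genes 45 were found, 32 were tested in the E12 line and 33 in the E47 line, and edgeR called 0 in either. In E12KO 12 lay above 0 and 20 below, with a median log2 fold change of -0.05, and in E47KO 10 lay above and 23 below, also with a median of -0.05. Gnas, which encodes a G protein subunit, averaged 1238 ± 107 CPM in E12KO and 1240.4 ± 6.84 CPM in E12wt. Nnat, the gene of neuronatin, averaged 369 ± 27 CPM in E12KO and 440 ± 37 CPM in E12wt, at -0.25 ± 0.08 with an edgeR BH-adjusted p of 0.519. DESeq2 called 1 gene of this list, the cyclin-dependent kinase inhibitor Cdkn1c, lower in E12KO, with an adjusted p of 0.0204, named here after its value was seen. Kcnq1ot1, Snrpn, Snurf, Peg13, Rian and Mirg were not analysed here.

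Most factors that maintain imprints had log2 fold changes close to 0 in E12KO. Of 12 listed genes 11 were tested and edgeR called 0, with 6 above and 5 below 0 in E12KO and 3 above and 8 below in E47KO. Trim28, a corepressor recruited to imprinted regions, had a log2 fold change of 0.05 ± 0.07 in E12KO and 0.03 ± 0.18 in E47KO. Dnmt1, the maintenance DNA methyltransferase, was at 0.05 ± 0.06 in E12KO and -0.18 ± 0.30 in E47KO. Zfp57, a zinc finger protein that binds methylated imprinting control regions, had the value farthest from 0 of this list in E12KO, at -0.62 ± 0.20 with an edgeR BH-adjusted p of 0.523, and was named after its value was seen. It averaged 17.9 ± 2.93 CPM in E12KO and 27.5 ± 7.94 CPM in E12wt.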

How the data were processed

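RNA of 12 libraries was sequenced after stranded mRNA library preparation, per the labels. The submitters' processing notes name STAR 2.5, build mm9, DESeq2 and DESeq. Nothing consulted names the annotation. For each library the authors deposited counts of reads per gene, as whole numbers in 3 versions by strand. Opposite-strand counts, 97.1 to 97.2% of strand-assigned gene reads, were used here. Rows that name no gene, 14.2 to 17.5% of reads, were left out. Their comparison tables, 1 per line, hold the authors' normalized signal, deposited log2 fold changes with errors, a deposited score (the Wald ratio of change to error) and deposited p-values, raw and adjusted. IDs were named with GRCm38 annotation (32897 of 37620) or the deposited tables (10), and the rest kept their ID.

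The members and lists were chosen with earlier results of these data known. Counts were tested in R 4.3.3 with edgeR 4.0.16 (quasi-likelihood, low-count filter by group, TMM, two-sided, BH over all genes tested, threshold 0.05); fold changes use a prior count of 0.125, and each SE is the log2 value over the square root of F. DESeq2 1.42.0 was an alternative. CPM were TMM-scaled over the 12 libraries. Correlations were computed on log2 CPM (prior count 2) and tested two-sided with 100000 permutations, or with all orderings within a line. Each knockout was fitted only with the wild type of its line. On simulated counts with changes of 1 on the log2 scale, the test recovered 87% in the E12 design and 48% in the E47 design; with changes of 2 it recovered 99% and 95%. Only genes averaging above 1 CPM were changed in the simulation, so none lay at the level of Igf2 or Meg3. In each design 100 genes were changed at each size, which eases the BH adjustment. The data themselves gave 6 called genes in the E12 line and 2 in the E47 line. These rates therefore do not give the power for the members.

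The naming rule took all members, from each pathway list up to 4 called genes (if none, the 2 most abundant), and the genes most alike to the 3 most variable members. Replicate numbers recur across groups, but their meaning is not stated. Deviations from the group means correlated between same-numbered libraries at 0.10, 0.23 and 0.45 in the E47 line. In the E12 line these values were 0.09, 0.06 and -0.01. Between E47wt and E12wt, which belong to different lines, they were 0.05, 0.26 and 0.28. The main tests used no pairing in either line, and the replicate number entered only as a block in an alternative fit.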

Additional observations from a re-analysis of the deposited data

How the results depend on the processing

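All 10 members stayed uncalled in each comparison under every alternative, except Igf2r in E12KO with DESeq2, where members called came to 1. Igf2 in E47KO had no adjusted p from DESeq2, so it could not be called there. The number of genes called depended more on the setting. In E12KO against E12wt it was 76 with DESeq2, 20 without the low-count filter, 2 with all 12 libraries in 1 fit, 4 with the replicate block, and 2 (without E12KO replicate 2 or 3) to 10 (without E12wt replicate 3) when single libraries were left out, beside 6 reported. In E47KO against E47wt it was 12 with DESeq2, 1 with Xist class as a covariate, 2 with the replicate block and 0 (without E47wt replicate 3) to 7 (without E47wt replicate 2) without single libraries, beside 2. For the difference between lines it was 1 with DESeq2 and 0 to 1 without single libraries, beside 0; for E47wt against E12wt it was 7 with DESeq2 and 1 with all 12 libraries, beside 0. The H19 and Igf2 correlation was 0.53 with group means removed.

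The sign of some members turned. In E47KO, H19 was -0.058 with the replicate block, and with Xist class as a covariate Meg3 was 0.14, Plagl1 0.047 and Ndn 0.049. In E47wt against E12wt, Peg3 was -0.076 with that covariate, and Mest 0.084 with it and 0.022 with both-strand counts. Without single libraries, log2 fold changes ranged as follows. In E12KO, Grb10 ran from -0.24 to 0.14. In E47KO, H19 ran from -0.55 to 0.44, Igf2r from -0.15 to 0.074, Peg3 from -0.14 to 0.077, Plagl1 from -0.23 to 0.091, Grb10 from -0.54 to 0.044, Ndn from -0.053 to 0.030 and Mest from -0.62 to 0.056. For the difference between lines, Igf2 ran from -0.33 to 1.40, Plagl1 from -0.0049 to 0.33, Grb10 from -0.48 to 0.12 and Mest from -0.55 to 0.14. In E47wt against E12wt, Dlk1 ran from -0.30 to 0.018, Meg3 from -0.81 to 1.10, Peg3 from -0.10 to 0.22, Grb10 from -0.30 to 0.079, Ndn from -0.016 to 0.041 and Mest from -0.091 to 0.084. The cause of these shifts was not tested. Depth limits Igf2 and Meg3 most, which had as few as 4 and 1 reads in a library.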
